A study of Mus musculus with 9 samples.

Results

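Circular RNAs (circRNAs) from a pair of microtubule genes, Ckap5 and Ttll5, were followed in mouse liver on 9 one-colour circRNA arrays. The circles were chosen by position. A circRNA probe belonged to Ckap5 if its named span lay wholly between 91366000 and 91462000 on chromosome 2, and to Ttll5 if it lay wholly between 87165000 and 87400000 on chromosome 12 (mouse build mm9). This gave 20 Ckap5 circles and 14 Ttll5 circles, 34 of the 30534 circRNA probes on the array and of the 14043 named by position. No circRNA named by position crossed an edge of either window. The nearest such circle outside lay 23797 bases before the Ckap5 window and 37822 bases before the Ttll5 window. Where the circRNAs with other names lie is unknown here.

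The livers came from male C57BL/6J mice, an inbred strain, at 20 weeks of age, in 3 groups. The control group received chow for 17 weeks, with gavage unmentioned in its labels. The high fat diet group received food in which fat supplied 45% of calories for 17 weeks, with saline gavage during the last 5 of these. In the metformin group the same food was combined, over those last 5 weeks, with a gavage of metformin, a biguanide that lowers blood glucose, at 3 mg per kg body weight per day. A group comprised 3 arrays and an array 1 pool of 4 livers, so spread between arrays means spread between pools, not single animals. Diet and gavage cannot be told apart in comparisons with control. In whole liver RNA a change in the share of a cell type and a change in RNA per cell cannot be told apart either. RNA was treated with RNase R, an enzyme that digests linear RNA from its ends and spares closed circles, before labelling.

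A circRNA forms when the spliceosome joins the end of an exon back to the start of the same or an earlier exon, so that 1 gene can give many circles that share back-splice ends. Ckap5 encodes a large microtubule-binding protein of the XMAP215 (ch-TOG) family, which feeds tubulin to growing microtubule plus ends and is needed for the mitotic spindle. Ttll5 encodes a tubulin tyrosine ligase-like enzyme that adds glutamate to the tails of tubulin, a modification that marks stable microtubules and cilia. In hepatocytes, microtubules carry secretory vesicles, lipoproteins and lipid droplets. The circles are called by these gene names because they lie in the windows set for the genes. No mm9 gene models were used here, so exons, introns and strands were not assigned. In the RefSeq gene table of a later build (GRCm38.p6), Ckap5 (gene ID 75786) overlaps F2, the gene of prothrombin, and the small nucleolar RNA gene Snord67. Ttll5 (gene ID 320244) overlaps Erg28 and the noncoding Gm51989 and Gm51990, and its neighbours are Flvcr2 and Tgfb3.

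The promoters of the genes that name the windows are shown because the Ttll5 circles had metformin differences of the same sign. Whether the promoters bear on those differences was not tested. The sequences are the 250 bases before the start, from RefSeq on GRCm38.p6, plus strand, with matches to the searched motifs in capitals.
Ckap5 (chr2:91526512-91526761): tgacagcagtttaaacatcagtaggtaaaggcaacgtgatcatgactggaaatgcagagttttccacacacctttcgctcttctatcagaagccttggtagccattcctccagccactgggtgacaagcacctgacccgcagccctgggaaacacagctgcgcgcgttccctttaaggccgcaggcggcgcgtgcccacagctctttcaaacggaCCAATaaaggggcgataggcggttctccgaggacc
Ttll5 (chr12:85824670-85824919): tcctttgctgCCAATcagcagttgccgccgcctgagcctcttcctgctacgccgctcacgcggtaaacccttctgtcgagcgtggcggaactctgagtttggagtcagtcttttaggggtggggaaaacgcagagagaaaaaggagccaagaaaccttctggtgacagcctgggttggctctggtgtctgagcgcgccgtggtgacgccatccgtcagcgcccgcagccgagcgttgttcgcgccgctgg
On either strand 4 motifs were searched, none of which overlaps another. The first was the CCAAT box, spelled as in its name. The GC box was searched as GGGCGG. The TATA box was searched as TATAAA. The E-box was searched as CACGTG, which reads alike on both strands. A CCAAT box was found once in each sequence, starting 35 bases before the start of Ckap5 and 240 bases before that of Ttll5; 33.8% of 32851 RefSeq promoters held one in the same window. Neither sequence held the letters of the other motifs, which were in 32.7%, 12.4% and 6.02% of promoters. GC content was 55.2% for Ckap5 and 61.2% for Ttll5, against a median of 52.4%. The Ttll5 promoter record overlapped that of Erg28, on the other strand, by 126 bases. These are matches of letters, and nothing on the array measured the promoters.

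Levels are given as log2 of the processed intensity minus the array's 75th percentile, so that 0 is that percentile of the array's probes. Brightness depends on the probe as well as on the RNA, so levels of different probes are not compared as amounts. Each circle has a partner probe of the same name ending in _neg; its target is unstated in the labels and headers, and it served as a paired reading on the same array. All 14 Ttll5 circles and 18 of 20 Ckap5 circles entered the test, which required 3 of 3 arrays of some group to be well above background, as did 84.7% of all circRNAs. Over all probes, 69.4% to 84.3% were well above background per array, lowest on metformin replicate 3 (69.4%) and high fat diet replicate 2 (71.7%). All 3 control arrays and high fat diet replicate 1 lay in column 1 of the first slide, high fat diet replicates 2 and 3 and metformin replicates 1 and 2 in column 2, and metformin replicate 3 alone on a second slide, in its column 1. The loci were proposed with earlier results of these arrays known, and which values chose them is not recorded; all group differences below are therefore a description, and the p-values, adjusted over all circRNAs on the array, add no independent support.

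Ttll5 circles stood higher with metformin than on the high fat diet alone. The mean of all 14 circles was higher, by log2 differences of 0.06 to 0.59 with a median of 0.36, where the median over all tested circRNAs was 0.03 and 56.4% had a difference above 0. None was called (limma, 0 of 14, smallest adjusted p = 0.969; 0% of 25828 circRNAs were called). An unadjusted p under 0.05 was found for 9 of 14, all higher, against 2.32% of all circRNAs. For 7 of 14 circles every metformin array was above every high fat diet array, as for 5.07% of all circRNAs, and for 0 of 14 below, as for 2.67%. Nothing is read from these counts, since the locus may have been chosen for such values.

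In this comparison the lowest p belonged to the circle from 87184728 to 87190331, near the start of the gene. Its levels were -3.13, -3.52 and -3.43 in controls, -3.80, -3.78 and -3.30 on the high fat diet and -3.04, -3.04 and -3.17 with metformin. The metformin arrays were all above the high fat diet arrays, and 1 control array was among them. The difference was 0.55 ± 0.167 (SE, n = 3 arrays per group; limma, unadjusted p = 0.00674, adjusted p = 0.969).

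The circle from 87230109 to 87233160 followed, at -2.28, -2.45 and -2.31 in controls, -2.47, -3.10 and -2.66 on the diet and -2.21, -2.25 and -2.20 with metformin. The 3 groups did not overlap in any pair: high fat diet lay below control and metformin above both, with the metformin arrays within 0.05 of each other. Metformin was higher than high fat diet by 0.52 ± 0.161 (SE, n = 3; limma, adjusted p = 0.969), and high fat diet lower than control by a difference of -0.40 ± 0.161 (limma, adjusted p = 0.636). High fat diet replicate 2 was the lowest array, and without it the metformin difference was 0.35.

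Among the brightest Ttll5 probes, the circle from 87239943 to 87253540 stood at 0.84, 0.80 and 0.86 in controls, 0.75, 0.17 and 0.67 on the diet and 0.83, 1.14 and 1.03 with metformin. All high fat diet arrays were below all others, and replicate 2 was far below its group. The metformin difference was 0.47 ± 0.166 (SE, n = 3), and 0.29 without that array. The circle from 87204514 to 87219428 stood at 0.63, 0.26 and 0.38 in controls, -0.0039, 0.18 and 0.53 on the diet and 0.73, 0.69 and 0.72 with metformin. Its metformin arrays were above all 6 others, by a difference of 0.48 ± 0.160 (SE, n = 3) from high fat diet. The brightest Ttll5 probe, for the circle from 87204514 to 87224388, shares its start with that circle and ends further on. It stood at 1.85, 1.72 and 1.79 in controls, 1.48, 1.64 and 1.53 on the diet and 1.53, 1.32 and 1.99 with metformin. Here the metformin arrays spanned the range of both other groups, and the difference of 0.06 ± 0.167 (SE, n = 3) was the smallest of the 14. Its own partner was brighter on every array.

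**Figure D1:**
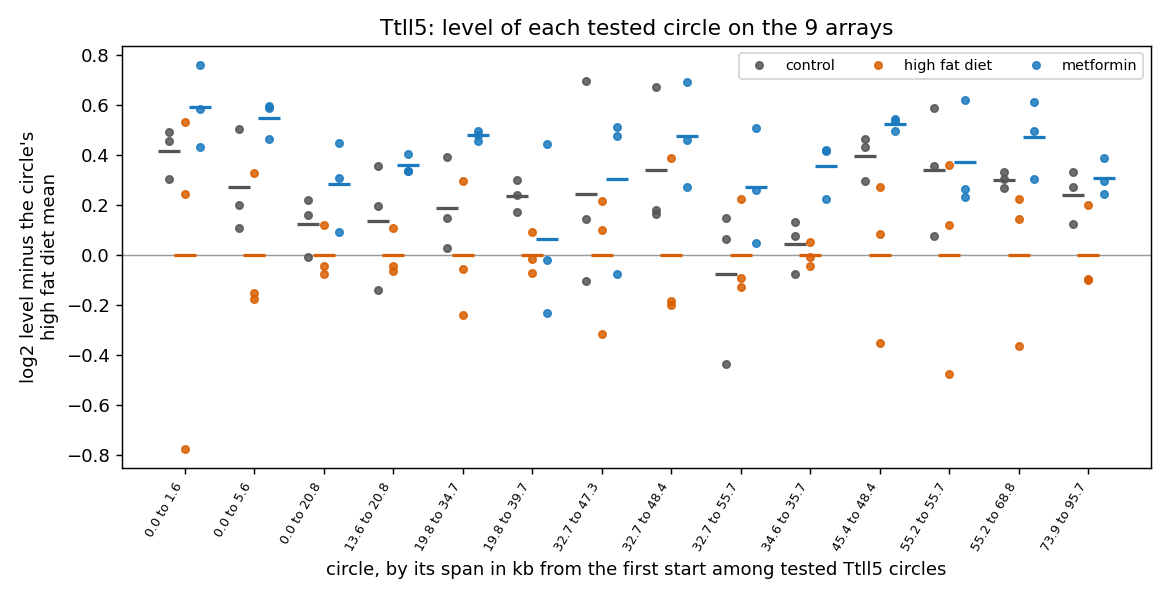
Log2 level of each of the 14 tested Ttll5 circles on the 9 arrays, minus the circle's high fat diet mean, with circles ordered along the gene by their span in kb from the first start; points are arrays and dashes are group means (grey control, orange high fat diet, blue metformin). The metformin mean lies above 0 for all 14 circles, by 0.06 to 0.59, and the control mean for 13.

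The remaining named Ttll5 circles were as follows. The short circle from 87219337 to 87220425 stood at -0.50, -0.65 and -0.44 in controls, -0.52, -0.58 and -0.62 on the diet and -0.16, -0.15 and -0.35 with metformin. Metformin was above both other groups without overlap, by 0.35 ± 0.128 (SE, n = 3) from high fat diet and 0.31 ± 0.128 from control, while control and high fat diet overlapped. The circle from 87217441 to 87240434, the longest at 22993 bases, stood at -2.16, -2.74 and -2.24 in controls, -2.40, -2.08 and -2.43 on the diet and -2.04, -1.80 and -2.26 with metformin. It was the 1 Ttll5 circle with a higher mean on the diet than in controls (0.08 ± 0.187, SE), and its groups overlapped. The last circle, from 87258625 to 87280460, stood at -0.06, -0.26 and -0.12 in controls, -0.19, -0.49 and -0.48 on the diet and -0.15, 0.0010 and -0.09 with metformin. All metformin arrays were above all high fat diet arrays, by 0.31 ± 0.136 (SE, n = 3); 2 of the 3 lay within the range of the controls and 1 above it. The largest difference of the 14 over all arrays, 0.59 ± 0.266 (SE, n = 3), belonged to the circle from 87184728 to 87186303, added here after its values were seen. It stood at -1.07, -1.22 and -1.04 in controls, -0.996, -2.30 and -1.28 on the diet and -0.77, -0.94 and -1.10 with metformin. High fat diet replicate 2 was far below every other array, and replicate 1 of that group lay among the metformin arrays. Without replicate 2 the difference was 0.20, no longer the largest, and that of the circle from 87239943 to 87240439 was 0.13 in place of 0.37.

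Along the gene, the Ttll5 circles began at 8 positions and ended at 12, spread over 95732 bases, and 12 of 14 shared a start or an end with another. Spans ran from 496 to 22993 bases, with a median of 14094. From the start at 87184728 came 3 circles, with metformin differences of 0.59, 0.55 and 0.28. From 87217441 came another 3, of 14591, 15719 and 22993 bases, with differences of 0.30, 0.47 and 0.27. From 87204514 came the circles with 0.48 and 0.06 described above. The differences followed no order from the first to the last circle, and circles with a common start did not share 1 value; the SEs ran from 0.128 to 0.266. Differences between circles were not tested. Over the 9 arrays the levels of the 91 pairs of Ttll5 circles correlated with a median of 0.58 (85 of 91 above 0), and with a median of 0.25 (64 above 0) after each group's mean was taken away. The pairs share arrays and their depth of labelling, and these values are a description.

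**Figure D2:**
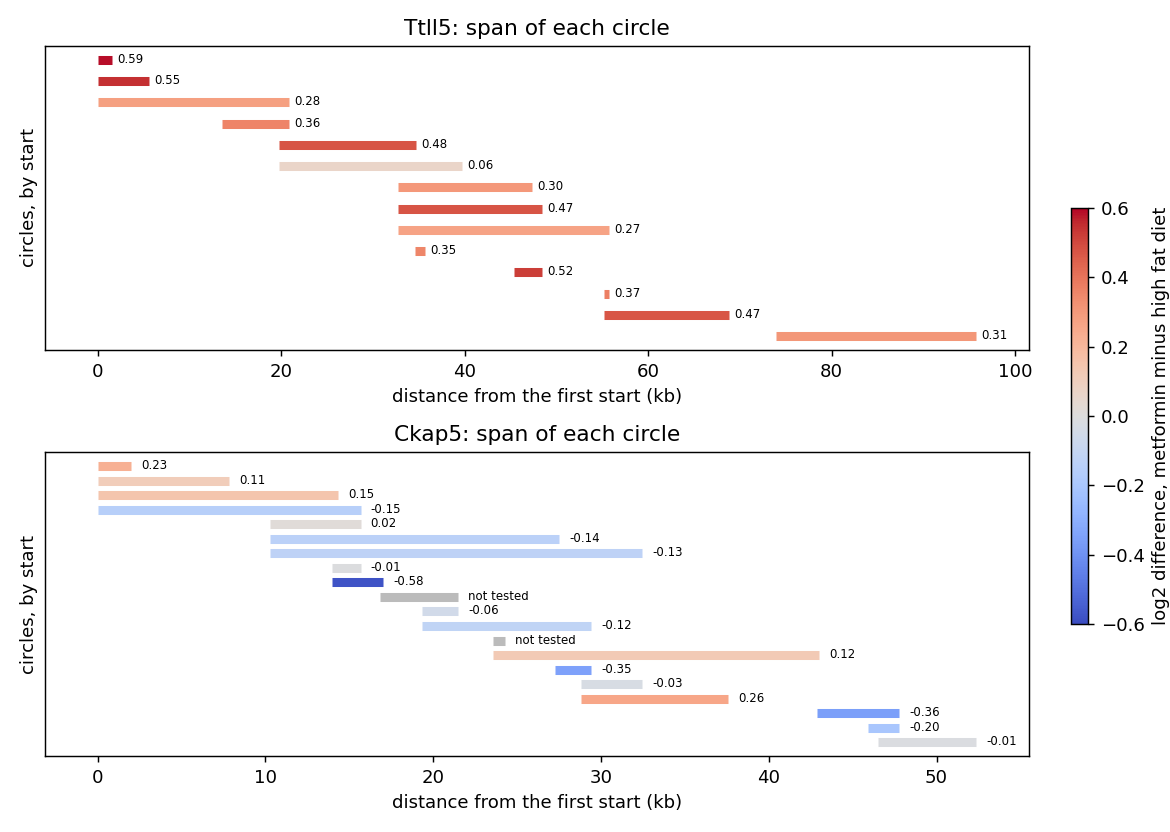
Span of each Ttll5 and Ckap5 circle as a bar, in kb from the first start in its gene, coloured and labelled by the log2 difference metformin minus high fat diet; grey bars were not tested. All 14 Ttll5 values are above 0 (0.06 to 0.59), and the 18 tested Ckap5 circles run from -0.58 to 0.26.

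The partner probes of the Ttll5 circles had differences of the same sign. Partners of 11 circles were themselves tested. All 11 were higher with metformin than on the high fat diet, by 0.16 to 0.64 with a median of 0.48. No share over all partner probes was set beside this count or the partner counts below, so nothing is read from them. The log2 ratio of circle to partner differed by -0.27 to 0.09 with a median of -0.08; it was higher for 5 and lower for 6 of 11, against 43% of all pairs higher. The sign of that median turned with the setting: it was 0.03 (6 of 11 higher) without high fat diet replicate 2 and 0.03 (8 of 11 higher) with normexp. No ratio was called (limma, 0 of 11, smallest adjusted p = 0.969; 0% of 21258 pairs; none of the 11 had an unadjusted p under 0.05, against 4.91% of all pairs). Over all 14 circles, the high fat diet mean was -1.44 ± 0.101 and the metformin mean -1.06 ± 0.0712 (SD, n = 3). The partners' means were -2.48 ± 0.154 and -2.10 ± 0.0371 in the same order. The mean was higher with metformin by 0.385 for circles and 0.385 for partners, and the mean ratio differed by 0.00020. The circle probe was brighter than its partner on the mean of the arrays for 12 of 14 circles, as for 78% of all circRNAs, and the partner was brighter on all 9 arrays for the circles from 87204514 to 87224388 and from 87258625 to 87280460. The partner of the circle from 87184728 to 87190331 was well above background on none of the 9 arrays, so the margin between them has no measured size.

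**Figure D3:**
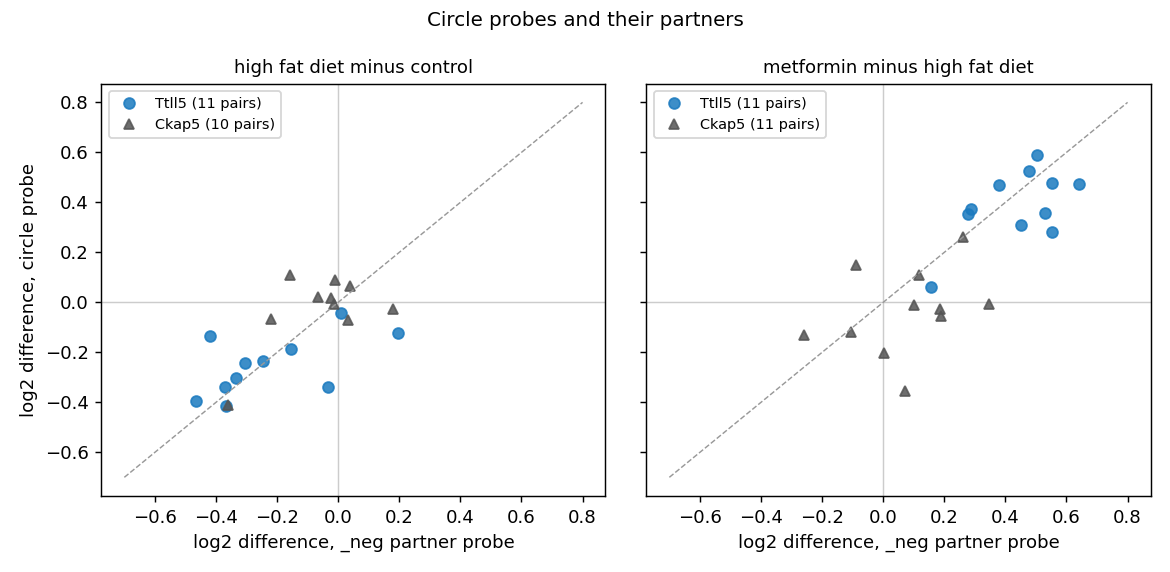
Log2 difference of each circle probe (vertical) against that of its _neg partner (horizontal) for pairs with both probes tested, high fat diet minus control on the left and metformin minus high fat diet on the right; circles are Ttll5, triangles Ckap5, and the dashed line marks equal differences. On the right all 11 Ttll5 pairs lie above 0 on both axes, and the Ckap5 pairs spread around 0.

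On the high fat diet, Ttll5 circles stood lower than in controls for 13 of 14, by a median of -0.24 (range -0.42 to 0.08), where the median over all circRNAs was -0.06 and 62% had a difference below 0. None was called (limma, smallest adjusted p = 0.636; 0% of 25777 circRNAs were called), and 1 of 14 had an unadjusted p under 0.05, the circle from 87230109 to 87233160, against 5.18% lower and 2.07% higher of all circRNAs. For 3 of 14 every high fat diet array was below every control array, as for 9% of all circRNAs. Without high fat diet replicate 2 the median was -0.14. Of the 11 partners tested, 9 were lower, with a median of -0.31, and the circle to partner ratio was higher for 6 of 11, against 50.2% of all pairs, with a median difference of 0.01 and 1 of 11 at an unadjusted p under 0.05 (5.81% of all pairs). With metformin against control, 13 of 14 circles were higher, by a median of 0.16 (range -0.17 to 0.35), where the median of all was -0.03 and 43.3% had a difference above 0. None was called (limma, smallest adjusted p = 0.919; 0% of 25763 circRNAs were called), 1 of 14 had an unadjusted p under 0.05 (1.64% of all circRNAs higher and 3.43% lower), 3 of 14 lay above control without overlap (4.76% of all circRNAs) and 0 of 14 below (6.88%). The median was 0.09 without control replicate 2, and in the authors' deposited values 9 of 14 were higher, with a median of 0.36. The ratio to the partner was higher for 5 of 11, against 43.7% of all pairs, and 1 of 11 had an unadjusted p under 0.05, against 6.69%. That pair was the 20831 base circle from 87184728 to 87205559, whose partner was higher than in controls by 0.75 ± 0.207 (SE, n = 3) and the circle by 0.16 ± 0.140; its ratio differed by -0.59 ± 0.225 (limma, adjusted p = 0.709). It was chosen after its values were seen. The diet and the metformin difference share the high fat diet arrays, and the diet difference and that of metformin against control share the control arrays, so each comparison's values stand on their own.

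The slide position of the arrays was set beside these values. Within column 2 of the first slide, with 2 high fat diet and 2 metformin arrays, 13 of 14 Ttll5 circles were higher with metformin, with a median of 0.43 (range -0.16 to 0.94), against 64.4% of all circRNAs and a median of 0.08. Within column 1, with 3 control arrays and 1 high fat diet array, 11 of 14 were lower on the diet, with a median of -0.16. Over all circRNAs the median there was 0.0031, and 50.5% were higher. These values rest on the 1 high fat diet array. The array column as a covariate leaves the metformin differences as they are, since both groups have 1 array in a column 1 and 2 in a column 2. In the authors' deposited values 11 of 14 were higher with metformin. The circles from 87204514 to 87224388 and from 87258625 to 87280460 stood there at the floor of -3.32 on all 9 arrays. Their partners were brighter on every array.

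Over all 9 arrays, Ckap5 circles showed no common direction. For metformin against high fat diet, 6 of 18 tested circles were higher and 12 lower, against 43.6% of all circRNAs lower, with a median of -0.04 (range -0.58 to 0.26). No circle was called (limma, smallest adjusted p = 0.969), and 0 of 18 had an unadjusted p under 0.05, beside the shares of 2.32% higher and 1.58% lower among all circRNAs. Without metformin replicate 3, the array with the lowest share of probes above background, 11 of 18 were higher, and the median was 0.03. For high fat diet against control 10 of 17 were higher, against 38% of all circRNAs, with a median of 0.02 (range -0.41 to 0.34; limma, smallest adjusted p = 0.661), but 5 of 17 with the array column as a covariate. For metformin against control 9 of 17 were higher and 8 lower, against 56.7% of all circRNAs lower, with a median of 0.08 (range -0.95 to 0.35; limma, smallest adjusted p = 0.919). Whether the differences at Ckap5 and Ttll5 differ from each other was not tested.

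The brightest Ckap5 probe, for the circle from 91399206 to 91421395, stood at 0.64, 0.74 and 0.90 in controls, 0.91, 0.99 and 0.71 on the diet and 0.53, 0.81 and 0.89 with metformin. All 3 groups overlapped, with differences of 0.11 ± 0.147 (SE, n = 3) on the diet and -0.13 ± 0.147 with metformin. This 22189 base circle is the longest of Ckap5, and its probe was brighter than its partner on all 9 arrays; the partner was well above background on 6 of them. The circle from 91435468 to 91441283 stood at 0.28, 0.71 and 0.55 in controls, 0.50, 0.71 and 0.59 on the diet and 0.70, 0.67 and 0.40 with metformin. The circle from 91388931 to 91396789 stood at 0.18, 0.20 and 0.42 in controls, 0.38, 0.25 and 0.36 on the diet and 0.38, 0.38 and 0.56 with metformin. For both, the groups overlapped in every comparison, and differences were within 0.18 on the log2 scale.

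The Ckap5 circles with the smallest p against control, or without overlap, were as follows. The circle from 91402911 to 91404605 was at -2.47, -2.65 and -2.57 in controls, -2.83, -3.07 and -3.03 on the diet and -2.58, -3.25 and -3.11 with metformin. All high fat diet arrays were below all control arrays, by a difference of -0.41 ± 0.175 (SE, n = 3; limma, unadjusted p = 0.0371, adjusted p = 0.661), and its partner differed by -0.36 ± 0.241. It was the 1 of 17 circles without overlap in that comparison, against 9% lower and 3.58% higher of all circRNAs. The circle from 91402911 to 91405960, which shares its start, was dim, at -3.97, -3.53 and -3.38 in controls, -4.55, -3.86 and -3.59 on the diet and -4.09, -4.00 and -5.66 with metformin. It was well above background on 3 control, 1 high fat diet and 2 metformin arrays, and its difference of -0.95 ± 0.389 (SE, n = 3) between metformin and control was -0.41 without metformin replicate 3 and -0.11 when background was corrected by normexp before the 75th percentile scaling. All metformin arrays were below all control arrays. These 2 circles were the ones of 17 with an unadjusted p under 0.05 for metformin against control, both lower and neither called, beside 3.43% lower and 1.64% higher among all circRNAs. Without overlap in that comparison were 2 of 16 circles, against 6.88% below control and 4.76% above it among all circRNAs. The circle from 91402911 to 91405960 was below control. That from 91388931 to 91390915 was above it by 0.28 ± 0.15 (SE, n = 3). The circle from 91399206 to 91404605 had the next smallest p on the diet, at -2.31, -2.45 and -2.19 in controls, -2.37, -1.74 and -1.83 on the diet and -1.81, -1.78 and -2.31 with metformin. Its groups overlapped, and the diet difference of 0.33 ± 0.196 (SE, n = 3) was -0.04 with the array column as a covariate.

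For metformin against high fat diet, the Ckap5 circle from 91417721 to 91426530 was the 1 of 16 tested circles with all values in both groups whose groups did not overlap, beside 5.07% higher and 2.67% lower among all circRNAs. It stood at -1.26, -1.21 and -0.89 in controls, -1.08, -1.23 and -1.08 on the diet and -0.85, -0.997 and -0.75 with metformin, a difference of 0.26 ± 0.143 (SE, n = 3). Its partner was brighter on all 9 arrays (mean log2 ratio of circle to partner -1.05), and differed by 0.26 ± 0.178, so that the ratio differed by 0.00010. The circle from 91431823 to 91436712 had an outlier flag on 5 of 9 arrays, all 3 controls among them. Its values were 0.45 and 0.15 on high fat diet replicates 2 and 3 and -0.25 and 0.14 on metformin replicates 2 and 3, and its difference of -0.36 ± 0.214 (SE) rests on these 4 arrays. Metformin replicate 2 was left out for the circle from 91408294 to 91418366 for the same reason. The circles from 91405778 to 91410429 and from 91412505 to 91413224, at mean levels of -6.15 and -5.57, were well above background on none of the 9 arrays and were not tested.

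**Figure D4:**
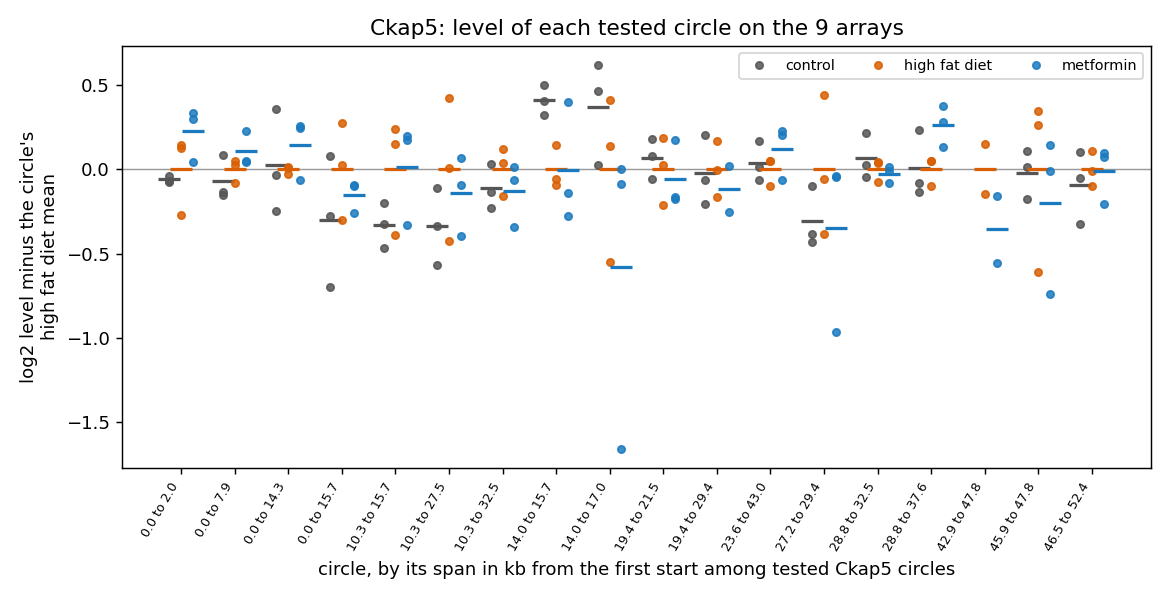
Log2 level of each of the 18 tested Ckap5 circles on the 9 arrays, minus the circle's high fat diet mean, drawn as for Ttll5; the circle with no grey points had no unflagged control value. Group means lie on both sides of 0, and the lowest point is metformin replicate 3 of the circle from 91402911 to 91405960.

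The Ckap5 circles spread over 52352 bases, with 11 starts and 14 ends, and 19 of 20 shared a start or an end with another. Spans ran from 719 to 22189 bases with a median of 5144, shorter than at Ttll5. From the start at 91388931 came 4 circles of 1984, 7858, 14339 and 15674 bases, with metformin differences from high fat diet of 0.23, 0.11, 0.15 and -0.15, with SEs of 0.130 to 0.203. From 91399206 came 3 circles, with 0.02, -0.14 and -0.13. Over the 9 arrays the 120 pairs among the 16 tested circles with a value on every array correlated with a median of 0.16 (74 above 0), against 0.58 at Ttll5; with group means taken away the medians were 0.15 and 0.25. Circle probes were brighter than their partners for 17 of 20 circles, beside 78% of all circRNAs. Within column 2 of the first slide 7 of 16 circles were higher with metformin, with a median of -0.01. Among all circRNAs 64.4% were higher there, with a median of 0.08. Within column 1, 14 of 17 Ckap5 circles were lower on the 1 high fat diet array than in controls. Their median there was -0.08, against 0.0031 over all circRNAs, of which 50.5% were higher there. Of 11 partners tested, 8 were higher with metformin than on the diet, with a median of 0.10. The ratio was higher for 4 and lower for 7 of 11, against 43% of all pairs higher. Its median was -0.12, against -0.03 over all pairs. Ratios called numbered 0 of 11 (limma, smallest adjusted p = 0.969), against 0% of 21258 pairs. Without high fat diet replicate 2 the ratio was higher for 6 of 11, with a median of 0.02, and with normexp it was higher for 0 of 11, with a median of -0.10.

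As means per array over the circles with a value for both probes on every array (14 in each gene), Ttll5 stood at -1.05, -1.39 and -1.21 in controls, -1.41, -1.55 and -1.36 on the diet and -1.04, -0.996 and -1.14 with metformin. Every metformin array was above every high fat diet array, by a mean of 0.385, and control replicate 2 lay among the high fat diet arrays. Ckap5 stood at -2.32, -2.41 and -2.14 in controls, -2.42, -2.12 and -2.21 on the diet and -2.19, -2.27 and -2.42 with metformin. Its groups overlapped in every comparison, and their means of -2.29, -2.25 and -2.29 differed by less than the SDs of 0.120 to 0.151. The Ckap5 partner means stood at -4.43, -4.25 and -4.28 on the diet and -4.07, -4.19 and -4.07 with metformin, so that they too were higher on every metformin array. The Ckap5 ratio of circle to partner was 2.01, 2.13 and 2.07 on the diet and 1.89, 1.92 and 1.65 with metformin, lower on every metformin array. The partner means of both genes, and so the ratios, include probes that were not well above background. Over the 11 Ckap5 pairs with both probes tested, the ratio differed by a median of -0.12, and by 0.02 without high fat diet replicate 2. No p is given for these means, since the circles were chosen with results known.

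**Figure D5:**
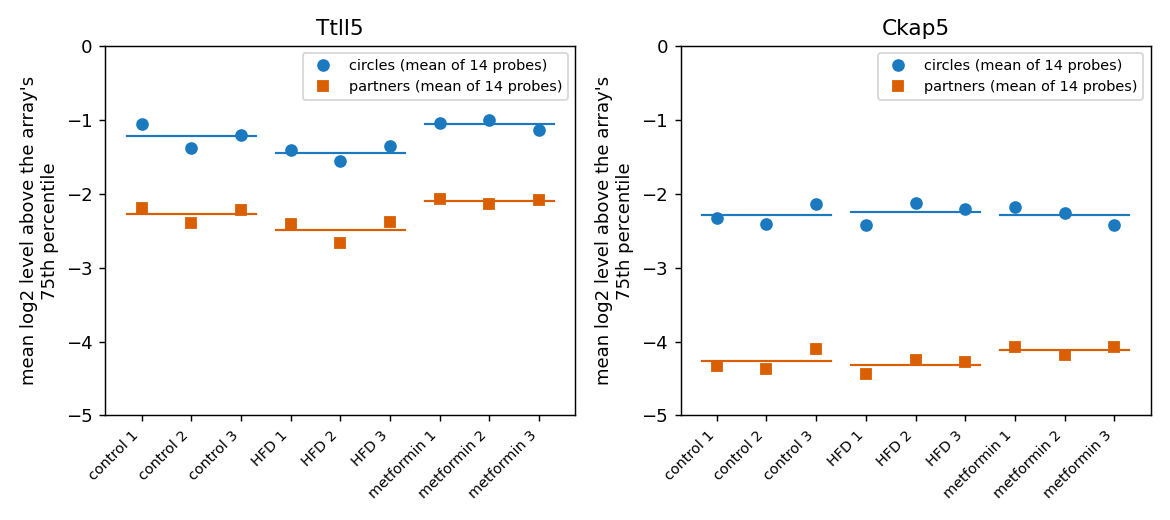
Mean log2 level per array over 14 circles (blue) and over their 14 partner probes (orange) of each gene, with a line at each group mean; HFD is high fat diet. At Ttll5 circles and partners both lie higher on all 3 metformin arrays than on all 3 high fat diet arrays; at Ckap5 the partners do too, and the circles overlap.

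The circRNAs, other than the gene's own member circles, whose levels followed these means most closely were found by Pearson correlation over the 9 arrays. For Ttll5 they were mmu_circ_0008530 (0.96), mmu_circ_0000226 (0.96) and mmu_circ_0004380 (0.95), of 24532 compared, of which 29 were above 0.9. For mmu_circ_0008530 the group means were 2.11 ± 0.0676 for control, 1.85 ± 0.0899 for high fat diet and 2.23 ± 0.0588 for metformin (SD, n = 3). For Ckap5 they were Fan_16_148_2171 (0.95), mmu_circ_0002348 (0.94) and a circle on chromosome 17 from 88407934 to 88408650 (0.94), of 24530 compared, of which 10 were above 0.9. These are the highest of many correlations over few arrays that share labelling and scaling. Names that begin with mmu_circ or Fan give no position, so whether those circRNAs lie within the windows is unknown. For the nearest circle named by position before Ttll5, metformin differed from high fat diet by 0.36 ± 0.178 (SE, n = 3). For that before Ckap5 it differed by 0.11 ± 0.140. The nearest such circles after the windows had differences of 0.08 ± 0.196, after Ttll5, and 0.05 ± 0.125, after Ckap5. High fat diet differed from control by -0.41 before and -0.20 after Ttll5, and by -0.12 before and -0.19 after Ckap5.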

How the data were processed

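Liver RNA of 3 groups, 3 arrays each, was measured. Per the labels' protocols, 5 µg of RNA from 15 mg of liver was digested with RNase R for 30 minutes. The authors deposited spot intensities from Agilent Feature Extraction, 11.5.1.1 per the file headers and 10.7 per the submitters' processing notes; processed intensities are background-subtracted and detrended, and median intensities of spot and local background are raw. The deposited log2 values per circRNA have a median of 6.51 on every array and a floor of -3.32; how they were made is unstated in labels and headers.

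Of 62617 spots, 1439 controls were left out; the rest carried 61079 probes. Spots with an outlier flag were left out and spots of a probe averaged. Log2 processed intensity was scaled to each array's 75th percentile. The filter kept 25864 circRNAs for which some group had 3 of 3 arrays well above background. All groups entered 1 fit with limma (version 3.58.1, R 4.3.3; 6 residual and 5.73 prior degrees of freedom), with calls at an adjusted p under 0.05 (Benjamini-Hochberg), and the fit was tested on simulated data. Ratios to the partner were fitted alike over 21354 pairs. The number of arrays limits the precision, and p-values cover only the spread between pools. The members and lists were chosen with earlier results of these data known. Named were, per gene, the 3 brightest tested circles and the 2 with the smallest p in each comparison. Also named were the circles with the largest and smallest ratio to the partner. CircRNAs other than the gene's members were named by likeness. The largest Ttll5 difference and the untested circles were added after their values were seen. Lists of microtubule genes and of liver cell markers were not tested, because probes were not paired with host genes.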

Additional observations from a re-analysis of the deposited data

How the results depend on the processing

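None of the Ckap5 or Ttll5 circles was called in any comparison under any of the 20 alternatives run (limma), leaving out each array among them. Ttll5 circles with a higher mean with metformin than on the high fat diet numbered 11 to 14 of 14 over 11 alternatives (11 with the authors' deposited values) and 13 to 14 when 1 array was left out, with medians of 0.27 to 0.45. Some of these alternatives could not alter the differences and gave 14 with the unchanged median of 0.36. They were the changed filters, trend and robust fitting, the replicate block, the array column and leaving out a control array. For high fat diet against control the number of higher Ttll5 circles was 1, and 0 with the array column as covariate, 3 with the authors' deposited values, and 0 to 2 when 1 array was left out (0 without control replicate 2 or high fat diet replicate 2, 2 without control replicate 3). For Ckap5, 5 circles instead of 10 were higher on the diet with the array column as covariate, and 5 to 11 instead of 6 were higher with metformin than on the diet when 1 array was left out (11 without metformin replicate 3). These member counts were added after the data were seen. Over all circRNAs, where no call was made, high fat diet against control gave 19 calls with normexp and 75th percentile scaling, 7 with normexp and quantile normalization, 7 with trend and robust fitting, 15 with the authors' deposited values, 4 with the replicate block, 1 with the array column as covariate and 1 when each array had to be well above background. Metformin against control gave 6, 3, 3 and 23 with the first 4 of these, 3 with the array column and 1 with array weights. Metformin against high fat diet gave 14 with the authors' deposited values, 1 with the array column, and 0 to 1 when 1 array was left out (1 without high fat diet replicate 1). Ratios to the partner gave 1 call on the diet and 1 for metformin against control without a filter on dim probes, and 1 for metformin against high fat diet with normexp and 75th percentile scaling. The cause of these changes was not tested. Of 917 values of the 16 named circles under alternatives, 883 moved by less than the spread between replicates and 34 by more, 21 of these in the authors' deposited values. Many of the 883 could not move, so their number is no measure of stability. A changed filter, trend and robust fitting, or leaving out an array outside the compared groups leaves a difference as it was. Replicate numbers did not pair the arrays: same-numbered arrays correlated at -0.14 to 0.19 in their deviations, over 0.1 for 2 of 9 pairs. Of 9 arrays, 4 correlated best with their own number. The replicate block could not alter the Ttll5 group differences, since each number occurs once per group and no Ttll5 circle lacks a value. Circles near background, such as the dim Ckap5 circle from 91402911 to 91405960, are limited by their signal.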
